A study of Mus musculus with 13 samples.

Results

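Receptors for the factors that guide and feed melanocytes were followed, gene by gene, through the peak lists of 9 mouse melanoma cell lines in which chromatin carrying H3K27ac had been precipitated and sequenced (ChIP-seq). The 10 receptor genes, out of 20807 autosomal protein-coding genes of the annotation, were chosen by name: Kit, Mc1r, Ednrb, Erbb3, Met, Egfr, Pdgfra, Pdgfrb, Fgfr1 and Igf1r. H3K27ac, an acetyl group on a lysine of the histone H3 tail, is found at active promoters and enhancers. For each gene, every peak that touched a window made of the gene body, 50 kb upstream and 5 kb downstream was collected in each list, and these windows held between 37 peaks (line Ma_1062) and 66 peaks (line Ma_1007).

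The lines came from melanomas of mice with an oncogenic NRAS mutant expressed from the tyrosinase promoter and 1 intact copy of Cdkn2a, and both features were shared by all groups. Ecad lines kept a floxed E-cadherin gene (Cdh1 F/F) without Cre, and ΔEcad lines came from mice whose tyrosinase promoter also drove Cre, so that Cdh1 was deleted in the melanocyte lineage. The 4 groups were male Ecad (Ma_1007 and Ma_1181), female Ecad (Ma_1014 and Ma_1039), male ΔEcad (Ma_1062 and Ma_1456) and female ΔEcad (Ma_1057, Ma_1064 and Ma_1069). Each line is a single culture with 1 list and no treatment, ages were not given in the sources used here, and no normal melanocytes were among the samples, so a p-value here measures the spread between lines. The comparisons bear on whether active chromatin differs with E-cadherin loss and sex.

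Melanocytes arise from the neural crest and depend on signals from their surroundings. Kit, Erbb3, Met, Egfr, Pdgfra, Pdgfrb, Fgfr1 and Igf1r belong to the receptor tyrosine kinases, most of which pair up when a ligand binds. They signal through adaptors such as Grb2 and Sos1 to RAS, or through PI3-kinase. Mc1r and Ednrb are G-protein-coupled receptors. Mc1r answers α-melanocyte-stimulating hormone through Gs and cyclic AMP and sets the type of pigment, and Ednrb answers endothelins through Gq and G11 and is needed for melanoblasts to spread and survive.

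The lists held 20741 (Ma_1069) to 41663 (Ma_1007) peaks and covered 29.5 to 67.2 Mb, with the shortest covered lengths in Ma_1069 and in Ma_1057 (34.2 Mb), both female ΔEcad. A longer list can cover more of a gene. Each difference in covered length is therefore given below with the same comparison after division by the covered length of the list. The number of reads behind each list is unknown, and a gene without a peak is one without a peak past the calling threshold, not one without the mark. Female Ecad lists Ma_1014 and Ma_1039 shared 67.6% of the bases that either covered, the most of any pair, whereas the other pairs of lists from 1 group shared 37.6 to 55.1%. Pairs from different groups shared 26.6 to 54.5%, so apart from that pair the 2 ranges overlapped. Promoters of melanocyte markers carried a peak in all 9 lists for 6 of 7 genes (Sox10, Mitf, Dct, Tyr, Pmel and Mlana), and the exception, Tyrp1, was called in 6. None of the 6 fibroblast markers had a promoter peak in any list, 1 of 4 endothelial markers had one in 1 list, and Cd68 (leukocyte) was called in the 4 male lists and Krt10 (keratinocyte) in 5 lists. The part of these calls in the receptor results was not tested.

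The receptor genes fell into those marked at a promoter everywhere, those marked in some lines and those without a promoter mark. A gene counted as called at its promoter if some peak came to within 1 kb of any of its annotated start sites. Mc1r, Erbb3, Met and Igf1r were called in all 9 lists, 4 of 10 genes, against 21.9% of all genes. Counting only the 5′ end of the gene (its outermost start site), Mc1r, Erbb3 and Met remained, 3 of 10, against 19.2%. Kit was called in 5 lists and Ednrb in 3, and Pdgfra and Fgfr1 were called in 1 list each, at internal start sites. Egfr and Pdgfrb were called in 0 lists, 2 of 10 genes, against 45.7% of all genes. The promoter calls and the share of each window under peaks are plotted by gene and line.

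**Figure D1:**
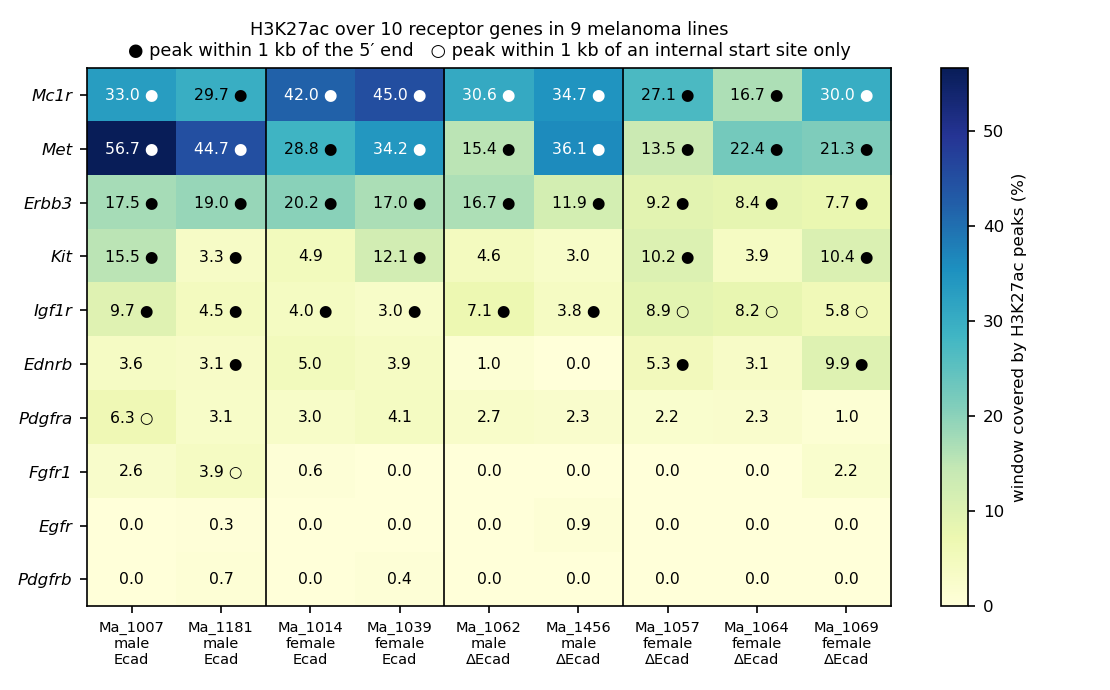
Percentage of each gene's window covered by H3K27ac peaks (colour and number) for 10 receptor genes (rows, ordered by mean) in 9 lines (columns, grouped by sex and genotype). Filled circles mark a peak within 1 kb of the 5′ end and open circles a peak within 1 kb of an internal start site only; Met in Ma_1007 reached 56.7%, whereas Egfr and Pdgfrb stayed below 1% in every line.

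Per length of window, Mc1r had the highest mean share under peaks, 32.1 ± 8.26% (mean ± s.d., n = 9 lines), followed by Met (30.3 ± 14.2%) and Erbb3 (14.2 ± 4.89%). Kit (7.57 ± 4.56%), Igf1r (6.11 ± 2.45%), Ednrb (3.89 ± 2.84%) and Pdgfra (2.99 ± 1.496%) came next. Fgfr1 (1.02 ± 1.47%), Egfr (0.126 ± 0.294%) and Pdgfrb (0.124 ± 0.252%) were lowest. For no gene in this order did its lowest line exceed the highest line of the next gene. Differences between neighbours within the same line were not tested. Peaks that overlapped or touched were joined across lists into elements, which gave 83 elements in the 10 windows. Of these, 16 were called in all 9 lists, 19.3% against 13.8% of the 58221 autosomal elements, and 23 were called in 1 list, 27.7% against 33.9%. Ma_1007, the longest list, held 13 of the 23.

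Mc1r encodes the melanocortin receptor, which as background sets the switch between dark and red or yellow pigment. The gene (chr8:123407107-123410744, + strand, GRCm38) was covered along its whole body in all 9 lists by a peak of 7.69 to 11.35 kb, which in 8 lists ranked above the 95th percentile of −log10 q in its own list. In Ma_1064 that peak ranked at the 88.1th percentile. The covered length in the window was 19.4 and 17.4 kb in the male Ecad lines, 24.7 and 26.4 kb in the female Ecad lines, 17.9 and 20.4 kb in the male ΔEcad lines, and, among female ΔEcad lines, 15.9, 9.81 and 17.6 kb. The female Ecad lines were highest and Ma_1064 lowest, and the female ΔEcad lines overlapped the others. All of this length lay in or near Tcf25, Tubb3, Spire2 or Gm20388, a gene annotated across the whole window, and the element over Mc1r ran from 7.98 kb upstream to 5.58 kb downstream of its start and also held starts of Tcf25 and Tubb3. Acetylation of Mc1r and of these neighbours therefore cannot be told apart. The mean was 6.57 kb lower in the female ΔEcad lines than in the other 6 (14.4 ± 4.11 kb, n = 3, against 21.0 ± 3.67 kb, n = 6; exact permutation test, two-sided, p = 0.0476; adjusted over all genes, 0.167), a comparison picked after its values were seen. Without Ma_1064 the difference was -4.25 kb, and divided by list length it had p = 0.845 (exact permutation test).

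Erbb3 encodes the neuregulin receptor with little kinase activity of its own, which signals by pairing with other ErbB proteins. It (chr10:128567523-128589652, − strand) was covered over 13.5 and 14.7 kb of its window in the male Ecad lines, 15.6 and 13.1 kb in the female Ecad lines, 12.9 and 9.21 kb in the male ΔEcad lines, and, among female ΔEcad lines, 7.11, 6.47 and 5.91 kb. Every female ΔEcad line lay below each of the other 6 lines, and every ΔEcad line lay below each Ecad line. The mean was 6.49 ± 0.60 kb (n = 3) in the female ΔEcad lines and 13.2 ± 2.19 kb (n = 6) in the others, a difference of -6.67 kb (exact permutation test, two-sided, p = 0.0119, the smallest these lines allow; adjusted over all genes, 0.0872). Between genotypes the means were 8.32 ± 2.86 kb (ΔEcad, n = 5) and 14.2 ± 1.14 kb (Ecad, n = 4), a difference of -5.90 kb (exact permutation p = 0.0159; adjusted, 0.231). Neither adjusted value passed 0.05, and after division by list length the groups overlapped in both comparisons (exact permutation p = 0.107 and 0.159).

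The window of Erbb3 held 5 elements. The element at the 5′ end (chr10:128583333-128591182) was called in all 9 lists. Its strongest peak had a fold enrichment of 30.3 and 73.1 in the male Ecad lists, 56.97 and 39.3 in the female Ecad lists, 24.9 and 19.0 in the male ΔEcad lists, and 12.3, 6.16 and 7.25 in the female ΔEcad lists. Ranked within its own list by −log10 q, the same peak stood at the 94.9th to 99.4th percentile in the 6 other lists and at the 89.8th, 69.6th and 79.6th in Ma_1057, Ma_1064 and Ma_1069. The peak was 3.54 to 4.76 kb wide in the female ΔEcad lists and 5.43 to 7.85 kb in the others. Fold, rank and width come from lists of different lengths and are given without a test. How many other promoter peaks split the lists in the same way was not counted. Over all peaks, the median width was 943 to 1019 bp in the female ΔEcad lists and 1059 to 1195 bp in the others. An upstream element centred at -3.74 kb (chr10:128591901-128594892), within 1 kb of the start of the non-coding gene Gm47540, was called in the 4 Ecad lists and in Ma_1062, and was picked after its values were seen. The other elements called in all 9 lists lay at the starts of the neighbouring genes Rps26, at -36.7 kb, and Pa2g4, at the 3′ end of Erbb3. Between 1.53 and 4.04 kb of the covered length per line lay in or near such neighbours.

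Met encodes the receptor of hepatocyte growth factor (scatter factor), which promotes motility of melanoblasts. It had the longest covered length of the 10 genes in every line but Ma_1057, where Igf1r was longer, and in each list its covered length stood at or above the 98.9th percentile of all genes with a peak in any list. In its window (chr6:17413800-17578980, + strand) peaks covered 93.6 and 73.9 kb in the male Ecad lines, 47.5 and 56.5 kb in the female Ecad lines, 25.4 and 59.7 kb in the male ΔEcad lines, and, among female ΔEcad lines, 22.3, 37.1 and 35.1 kb. Male Ecad lines were the highest, Ma_1057 and Ma_1062 the lowest, and Ma_1456 lay among the Ecad lines. The ΔEcad mean was 35.9 ± 14.7 kb (n = 5) and the Ecad mean 67.9 ± 20.4 kb (n = 4), a difference of -31.98 kb between overlapping groups (exact permutation p = 0.0317; adjusted over all genes, 0.249), also picked after its values were seen. The groups overlapped after division by list length too (exact permutation p = 0.0714). Without Ma_1007 the difference between genotypes was -23.4 kb, and leaving out 1 line at a time gave an exact permutation p of 0.0286 to 0.0893. Met had 26 elements. The promoter element (chr6:17457509-17471413), an upstream element at -12.7 kb and an element from 23.7 to 59.8 kb into the gene were called in all 9 lists. The full width of the last, 36.1 kb, was a peak of Ma_1007 alone. In the other lists the strongest peak of that element was 4.43 kb (Ma_1062) to 27.1 kb (Ma_1181) wide. That element spanned the start site of the transcript Met-201, called in all 9 lists. An element 98.3 kb downstream of the start was shared by 7 lists. The peaks of Met and Erbb3 are drawn by line.

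**Figure D2:**
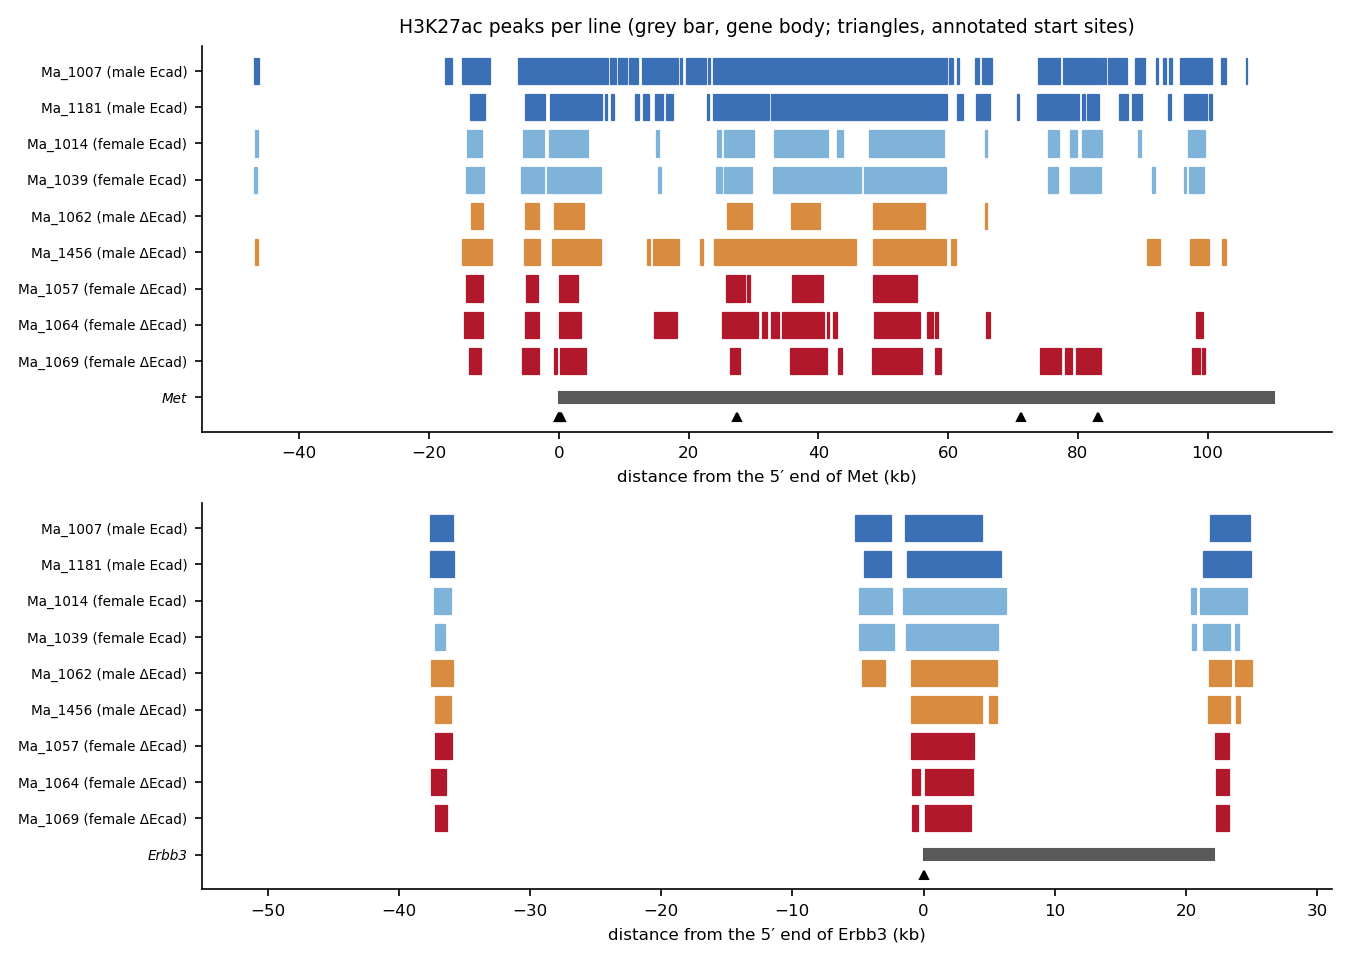
H3K27ac peaks (bars) of each line, 1 row per line, by distance in kb from the 5′ end of Met (top) and Erbb3 (bottom). Grey bars are gene bodies and triangles annotated start sites; Met carried 22.3 kb to 93.6 kb of peaks per line, and the Erbb3 element at -3.74 kb is missing from Ma_1456 and the 3 female ΔEcad rows, whereas that at -36.7 kb is in all 9.

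Igf1r encodes the receptor of insulin-like growth factors. In the female ΔEcad lists its 5′ end had no called peak, whereas 1 of its intronic elements was called in those lists alone. A peak within 1 kb of the 5′ end (chr7:67952827, + strand) was called in each of the 6 other lists and in 0 of the 3 female ΔEcad lists (two-sided p = 0.0119 by Fisher's exact test, and 0.240 after adjustment over all genes), so that 1 of the 6 receptor genes called at their 5′ end in some list was separated in this way, against 4.96% of all genes so called. The promoter peak ranked at the 84.1th and 63.1th percentile of its list in the male Ecad lines, the 70.7th and 47.6th in the female Ecad lines, and the 31.4th and 5.64th in the male ΔEcad lines. The last of these, in Ma_1456, had a −log10 q of 7.96 and lay near the threshold of 5, and a stronger peak of that line in the same element (31.9th percentile) lay more than 1 kb from the start. At a −log10 q of at least 10, or with lists cut to equal length, the Ma_1456 call would be lost and the complete split with it. All 9 lists counted as called when any start site was allowed, because Ma_1007 and the 3 female ΔEcad lists held a peak at the start of a transcript with a retained intron, Igf1r-203, 196 kb into the gene, and 0 of the 8 receptor genes called in some list were then separated, against 4.44% of all genes so called.

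The 250 bases before the 5′ end of Igf1r, shown because the promoter call there divided the lines, held 27 CpG and 58.8% G+C (median of all genes, 54.4%). Capitals in this and the sequences below mark the GC box GGGCGG, the E-boxes CACGTG and CACATG and the AP-1 site TGANTCA on either strand.
Igf1r upstream (chr7:67952577-67952826, + strand): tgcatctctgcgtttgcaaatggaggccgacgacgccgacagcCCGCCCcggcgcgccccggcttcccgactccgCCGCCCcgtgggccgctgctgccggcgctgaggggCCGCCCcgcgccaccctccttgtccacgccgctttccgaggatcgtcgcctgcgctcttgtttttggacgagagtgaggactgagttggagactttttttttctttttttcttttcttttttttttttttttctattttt
The 3 matches to GGGCGG stood in a window type of which 39.6% over all genes held at least 1. No match to CACGTG (6.60% of all genes), CACATG (10.1%) or TGANTCA (6.00%) lay in these letters.

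Within the gene, 22 elements were called, 5 of them in all 9 lists, and none lay wholly upstream. Elements separated the female ΔEcad lines from the other 6 in 2 of 83 cases, 2.41% against 1.74% of all elements: the promoter element (chr7:67950418-67953849), absent from those lines, and an intronic element 47.0 kb downstream of the start (chr7:67999151-68000414), called in those lines alone. In the latter the peaks had fold enrichments of 7.60, 6.43 and 6.62 in Ma_1057, Ma_1064 and Ma_1069 and stood at the 40.9th, 34.9th and 31.9th percentile of their lists, below the median peak of each. No element of the 10 genes separated ΔEcad from Ecad lines (0.546% of all elements did) or female from male lines (0.161%). The 300 bases around the mean summit of the 47.0 kb element, shown because no other element of the 10 genes was called in these lists alone and picked after its values were seen, had 36.0% G+C (median of all elements, 46.0%).
Igf1r intronic element (chr7:67999829-68000128, + strand): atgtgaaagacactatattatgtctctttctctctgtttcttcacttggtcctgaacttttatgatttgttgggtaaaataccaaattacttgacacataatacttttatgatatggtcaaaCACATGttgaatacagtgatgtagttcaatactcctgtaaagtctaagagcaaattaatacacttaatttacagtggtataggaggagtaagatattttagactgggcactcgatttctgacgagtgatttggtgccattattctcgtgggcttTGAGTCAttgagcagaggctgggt
It held 1 match to CACATG, as did 20.2% of all elements in a window of this length, and 1 match to TGANTCA, as did 10.7%. GGGCGG (11.0% of elements) and CACGTG (4.17%) were not among these letters.

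Covered length over Igf1r was 32.5 and 15.2 kb in the male Ecad lines, 13.6 and 10.0 kb in the female Ecad lines, 23.8 and 12.8 kb in the male ΔEcad lines, and, among female ΔEcad lines, 29.96, 27.5 and 19.4 kb. Among females, every ΔEcad line lay above both Ecad lines (exact permutation p = 0.2, where 0.1 is the smallest these 5 lines allow). Of the receptor genes, 1 of 10 was higher without overlap in this way, against 6.28% of genes with a peak in some female list. Lower were 4 (Mc1r, Erbb3, Met and Pdgfra), against 47.8%. Egfr, 1 of the 10, had no peak in these 5 lines and is not among the genes of these shares. Against all 6 other lines the female ΔEcad mean was 25.6 ± 5.52 kb (n = 3) and the other mean 17.99 ± 8.52 kb (n = 6), and Ma_1007 exceeded every female ΔEcad line (difference 7.62 kb; exact permutation p = 0.190; adjusted, 0.372). Divided by the length of the list, each female ΔEcad line lay above each of the other 6 (exact permutation p = 0.0119; adjusted, 0.144). The margin was narrow at the nearest pair, Ma_1069 (19.4 kb in a list of 29.5 Mb) and Ma_1062 (23.8 kb in 37.1 Mb). The 5 elements called in all 9 lists, among them those 133 and 143 kb downstream, lay in introns. A further pair, 121 and 196 kb downstream, were called in Ma_1007 and the 3 female ΔEcad lists and in no other.

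**Figure D3:**
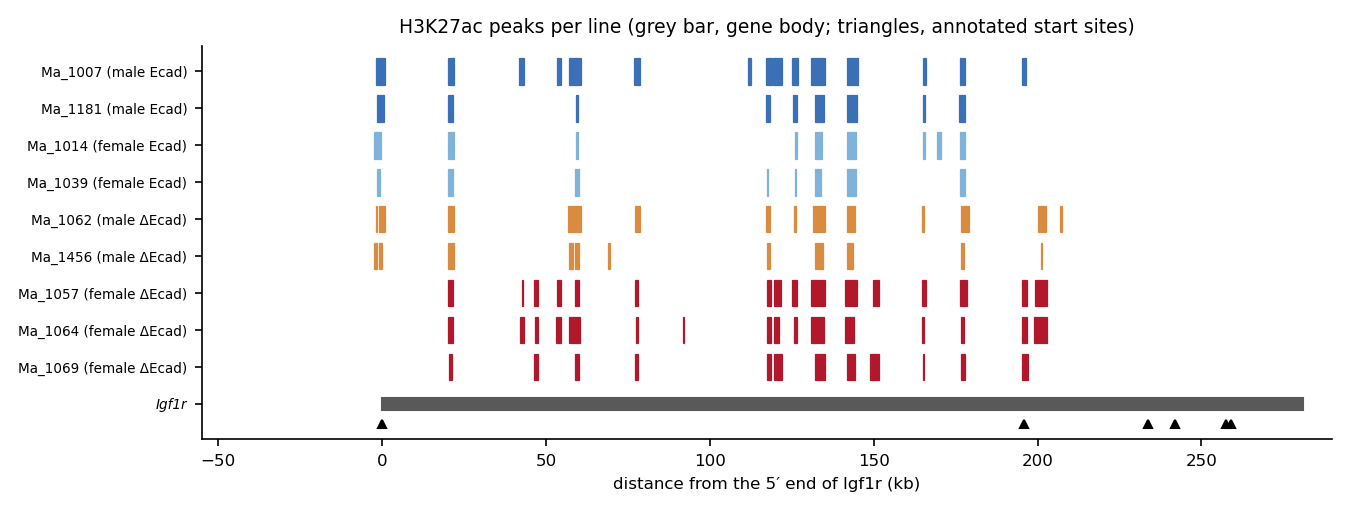
H3K27ac peaks (bars) over Igf1r in each line by distance in kb from the 5′ end, with the gene body in grey and annotated start sites as triangles. The 3 female ΔEcad rows (dark red, bottom) have no bar at 0 kb and each carries a bar at 47.0 kb that the other rows lack.

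Kit encodes the receptor of stem cell factor, on which melanoblast migration and survival depend. Its 5′ end (chr5:75574916, + strand) was called in both male Ecad lists, in Ma_1039, and in Ma_1057 and Ma_1069. The promoter peak lay at the 75.4th and 55.2th percentile in Ma_1007 and Ma_1181, the 42.8th in Ma_1039, and the 74.8th and 84.8th in Ma_1057 and Ma_1069. The calls followed neither sex nor genotype: both male Ecad lists had one, both male ΔEcad lists lacked one, and the female groups were split. Ma_1064 had a peak in the same element (chr5:75574988-75579293), which began 0.072 kb after the start, but it lay more than 1 kb from the start. The same pattern over the 9 lists was found in 2 other genes, Cxcl5 and Sorcs3, whose promoter peaks differed from those of Kit by a mean of 34.6 and 49.6 percentile points.
Kit upstream (chr5:75574666-75574915, + strand): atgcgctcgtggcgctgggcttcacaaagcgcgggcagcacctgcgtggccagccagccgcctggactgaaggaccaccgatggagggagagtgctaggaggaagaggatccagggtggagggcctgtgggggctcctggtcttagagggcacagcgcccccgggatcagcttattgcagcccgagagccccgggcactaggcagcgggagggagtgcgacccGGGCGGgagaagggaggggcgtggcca
These 250 bases, shown as those next to the variable promoter peak, held 69.2% G+C, 17 CpG and 1 match to GGGCGG.

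The 3′ end of Kit was acetylated in all 9 lines. An element of 12.3 kb (chr5:75647835-75660140), in its full width 1 peak of Ma_1007, was called in every list. Its strongest peak ranked between the 41.4th (Ma_1181) and 96.4th percentile (Ma_1007), and was 0.59 to 9.60 kb wide in the lists other than Ma_1007. A second element beyond the gene end (chr5:75660690-75664307) was called in 8, counting a peak of Ma_1456 that began outside the window. An element 48.4 kb downstream of the start was called in Ma_1007, Ma_1039, Ma_1456 and Ma_1057. Covered length was 21.2 and 4.58 kb in the male Ecad lines, 6.75 and 16.6 kb in the female Ecad lines, 6.34 and 4.14 kb in the male ΔEcad lines, and, among female ΔEcad lines, 14.0, 5.38 and 14.3 kb. The 4 lines above 10 kb (Ma_1007, Ma_1039, Ma_1057 and Ma_1069) came from 3 groups, and the groups overlapped in all 3 comparisons.

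Ednrb encodes the endothelin receptor B. It was called at its promoter in Ma_1181, Ma_1057 and Ma_1069, by peaks at the 58.1th, 68.1th and 71.8th percentile of their lists. Covered length was 3.09 and 2.67 kb in the male Ecad lines, 4.23 and 3.27 kb in the female Ecad lines, 0.875 and 0 kb in the male ΔEcad lines, and, among female ΔEcad lines, 4.47, 2.64 and 8.43 kb. Ma_1069 was highest and Ma_1456 held no peak at all in the window. Female lines averaged 4.61 ± 2.26 kb (n = 5) and male lines 1.66 ± 1.46 kb (n = 4), a difference of 2.95 kb that was the smallest p of the 10 genes between the sexes (exact permutation p = 0.0556; adjusted over all genes, 0.458). Only after division by list length did each female line exceed each male line (exact permutation p = 0.0317; adjusted, 0.645). There the nearest pair, Ma_1064 (2.64 kb in a list of 39.5 Mb) and Ma_1181 (2.67 kb in 40.7 Mb), was narrowly apart.

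Which part of Ednrb was marked also differed between lines. The upstream element at -47.3 kb (chr14:103889950-103893462) was called in Ma_1007, both female Ecad lists, Ma_1062 and Ma_1064, and stood at the 85.8th and 85.1th percentile in the female Ecad lists but between the 28.7th and 35.7th in the other 3. The upstream element centred at -6.15 kb (chr14:103849002-103852108) was called in Ma_1007, at the 39.4th percentile, and in the 3 female ΔEcad lists, at the 87.5th, 69.4th and 94.4th. Together with the Igf1r elements at 121 and 196 kb, 3 of 83 elements had this pattern of 4 lists, 3.61% against 0.660% of all elements. The pattern was picked after the values were seen and was not tested. A single other gene, Kcnn2, shared the promoter calls of Ednrb, with a mean difference of 4.55 percentile points.
Ednrb upstream (chr14:103844403-103844652, − strand): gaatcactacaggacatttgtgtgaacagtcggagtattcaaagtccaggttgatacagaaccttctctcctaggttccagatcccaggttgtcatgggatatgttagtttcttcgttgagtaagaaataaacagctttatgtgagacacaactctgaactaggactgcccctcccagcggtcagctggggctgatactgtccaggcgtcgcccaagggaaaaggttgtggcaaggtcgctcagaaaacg
These 250 bases, shown beside those of Kit as the other promoter marked in some lines, held 48.4% G+C and 7 CpG, and none of the 4 motifs was found in them.

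**Figure D4:**
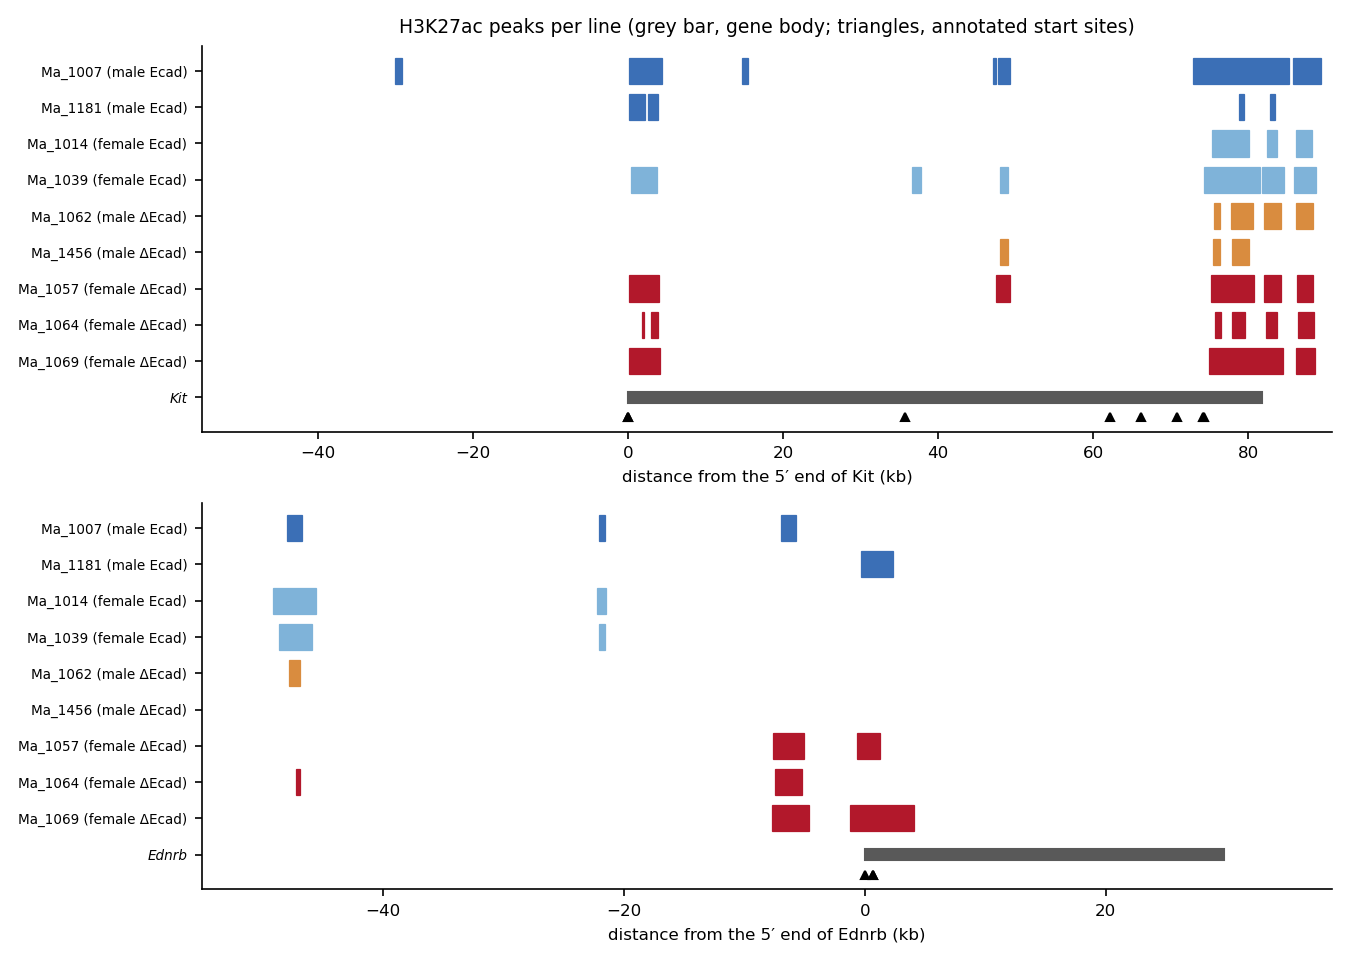
H3K27ac peaks (bars) of each line by distance in kb from the 5′ end of Kit (top) and Ednrb (bottom), with gene bodies in grey and start sites as triangles. All 9 rows have a bar at the 3′ end of Kit, 5 rows have one that reaches within 1 kb of its start, and the bar at -6.15 kb of Ednrb is in Ma_1007 and the 3 female ΔEcad rows.

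Pdgfra and Pdgfrb encode receptors of platelet-derived growth factors, which mesenchymal cells use, and Pdgfra lies upstream of Kit on chromosome 5. Pdgfra (chr5:75152292-75198215, + strand) had no peak within 1 kb of its 5′ end in any list, and Ma_1007 alone was called, at start sites 2.78 to 9.54 kb into the gene. That call, in 1 list, was shared by 531 other genes, among which Twist1 and Entpd6 had the nearest peak ranks. An element at the 3′ end (chr5:75197429-75201638) was called in all 9 lists, between the 56.5th and 95.7th percentile, and made up most of the covered length. That length was 6.39 and 3.09 kb in the male Ecad lines, 3.04 and 4.10 kb in the female Ecad lines, 2.72 and 2.32 kb in the male ΔEcad lines, and, among female ΔEcad lines, 2.18, 2.32 and 1.03 kb. Every ΔEcad line lay below every Ecad line, with means of 2.11 ± 0.637 kb (n = 5) and 4.15 ± 1.57 kb (n = 4) and a difference of -2.04 kb (exact permutation p = 0.00794, the smallest these lines allow; adjusted over all genes, 0.213). The female ΔEcad lines also lay below the other 6 lines, but by 1 bp at the nearest pair, 2.318 kb in Ma_1064 and 2.319 kb in Ma_1456 (difference of means -1.77 kb; exact permutation p = 0.0833; adjusted, 0.222). After division by list length the groups overlapped in both comparisons (exact permutation p = 0.0317 and 0.107). Without Ma_1007 the difference between genotypes was -1.29 kb. Pdgfrb, on chromosome 18, carried 1 peak in Ma_1181 (0.634 kb) and 1 in Ma_1039 (0.427 kb), both in an upstream element at -44.1 kb and in or near a neighbouring gene, and 0 kb in the other 7 lines.

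Fgfr1 encodes a receptor of fibroblast growth factors, and Egfr that of epidermal growth factor and related ligands. Fgfr1 (chr8:25513654-25575718, + strand) was covered over 3.01 and 4.52 kb in the male Ecad lines, 0.670 and 0 kb in the female Ecad lines, 0 kb in both male ΔEcad lines, and, among female ΔEcad lines, 0, 0 and 2.56 kb. Apart from an upstream peak in Ma_1007, its marks lay inside the gene: an intronic element 22.7 kb downstream of the start was called in Ma_1007, Ma_1181, Ma_1014 and Ma_1069, and one 30.7 kb downstream in the same lists but Ma_1014. Ma_1181 alone had a promoter call, 5.11 kb into the gene where several transcripts start, a pattern shared with 121 other genes, of which Col18a1 and Dnmbp had the nearest peak ranks. Egfr (chr11:16752203-16918158, + strand), the second longest of the 10 windows, held 1 intronic peak of 0.573 kb in Ma_1181 and 1 upstream peak of 1.93 kb, centred at -35.6 kb, in Ma_1456, and no peak in the other 7 lists.

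Across the 10 genes, few were separated by covered length, and no share was tested against that of all genes. Between the female ΔEcad lines and the other 6, 2 of 10 genes did not overlap (Erbb3 and Pdgfra, both lower, the latter by 1 bp), against 24.0% of the 16587 autosomal protein-coding genes with a peak in some list, and 2 had an unadjusted p under 0.05, against 28.5%. Between ΔEcad and Ecad lines 2 of 10 did not overlap (the same 2 genes, both lower), against 6.74%, and 3 had an unadjusted p under 0.05 (with Met), against 17.6%. Between female and male lines 0 of 10 did not overlap, against 4.26%, and 0 had an unadjusted p under 0.05, against 10.7%. After division by list length, 1 of 10 did not overlap for the female ΔEcad lines (Igf1r, higher), against 14.9%, and 0 between genotypes, against 3.02%. Between sexes 1 did not overlap (Ednrb, higher in females), against 2.61%, and both genes were apart by narrow margins. No promoter of the 10 separated ΔEcad from Ecad lines or females from males, against 1.15% and 0.443% of genes called in some list by any start site and 1.23% and 0.481% by the 5′ end. The median difference of the 10 genes was -0.465, -1.79 and -0.813 kb in the 3 comparisons, beside -0.951, -0.687 and -0.623 kb over all genes. By the exact permutation test, none of the 16587 genes (sex chromosomes excluded) passed an adjusted p of 0.05 in any of the 3 comparisons. The smallest adjusted values were 0.0872, 0.213 and 0.321. With these few lines the exact permutation p can fall no lower than 0.0119, 0.00794 and 0.00794. An adjusted value under 0.05 would therefore need a large share of all genes at that floor. Of genes that did not overlap, 96.8%, 98.7% and 97.7% were lower in the first-named group, and 79.1%, 74.3% and 79.0% after division by list length. The covered lengths are plotted by gene and group.

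**Figure D5:**
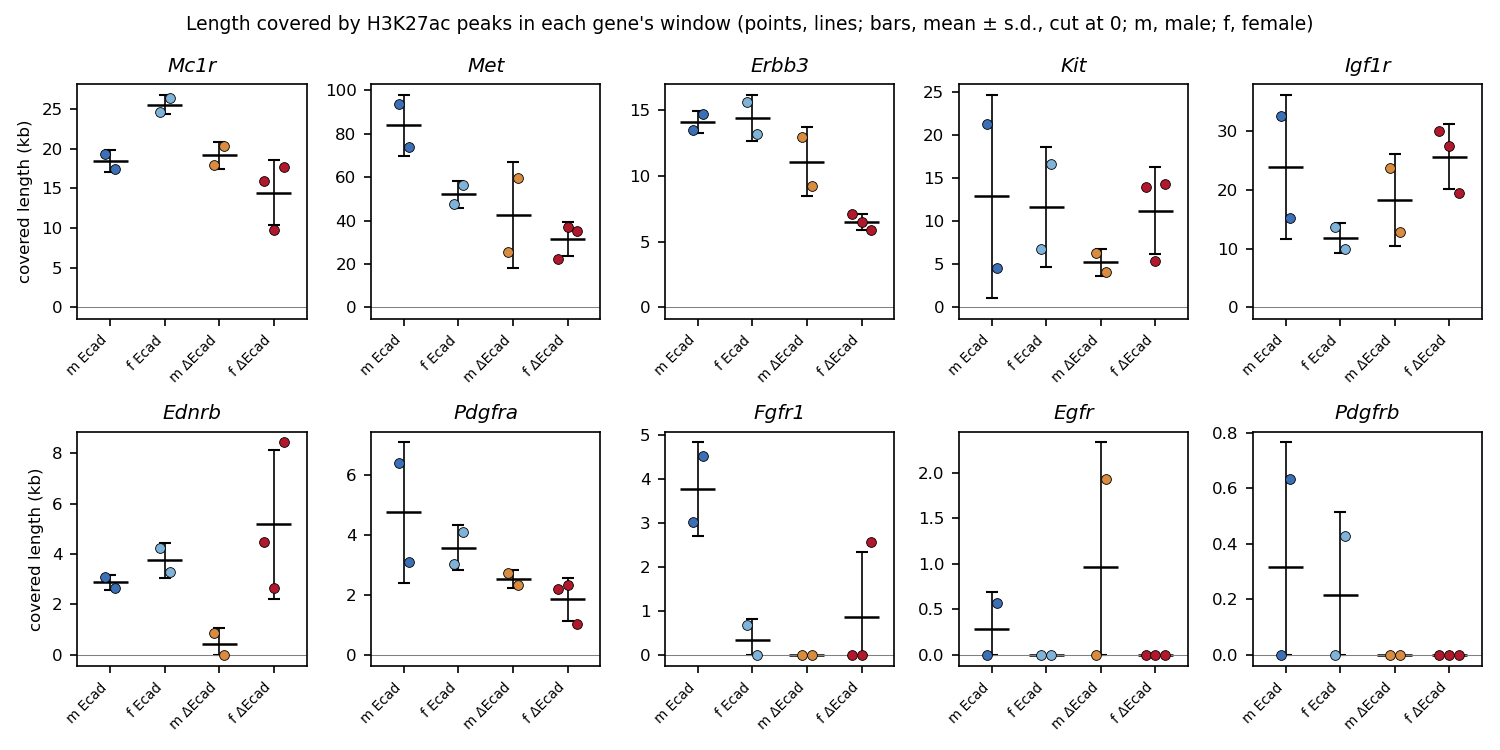
Length in kb covered by H3K27ac peaks in each gene's window (vertical axes, 1 panel per gene with its own scale) for male Ecad (n = 2), female Ecad (n = 2), male ΔEcad (n = 2) and female ΔEcad (n = 3) lines. Points are lines, and bars are means ± s.d. cut at 0; the 3 female ΔEcad points of Erbb3 lie at 5.91 to 7.11 kb, below all others.

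The other genes of these pathways are given beside the shares of all genes called in all 9 lists (21.9%) and in 0 (45.7%), without a test. Their covered lengths are to be read against the 24.0%, 6.74% and 4.26% of all genes that did not overlap, and their promoter calls against the 4.44%, 1.15% and 0.443% that separated the groups. Of 23 ligand genes, 22 were matched in the annotation and the ligand Asip was left out. Of the 22, 2 (Egf and Fgf1) had a promoter peak in all 9 lists and 14 in 0. Pdgfa was called in 4 lists and Tgfa, a ligand of Egfr, in 3, and Kitl, the ligand of Kit, in Ma_1007 and Ma_1456. No ligand promoter separated the groups, and of 17 ligand genes with a peak in their window, covered length did not overlap for 2 between the female ΔEcad lines and the other 6, 0 between genotypes and 1 between sexes. Of 22 related receptor genes, 2 (Ddr1 and Fgfr2) were called in all 9 lists and 11 in 0, with Insr, the insulin receptor, in 6 and Tyro3 in 3. No promoter call of theirs separated the groups, but covered length did not overlap for 5 of 17 with a peak in the first comparison, 2 between genotypes and 0 between sexes. Of 16 adaptor and downstream genes, 6 were called in all 9 lists and 1 in 0, and covered length did not overlap for 4, 1 and 1 in the 3 comparisons. Promoter calls separated 2 of the 16 for the female ΔEcad lines and 1 between genotypes. Gna11, a G-protein subunit used by Ednrb, and Sos1, the exchange factor that loads RAS with GTP, were called in the 6 other lists and in 0 of 3 female ΔEcad lists, and Plcg1, a phospholipase recruited by receptor tyrosine kinases, was called in the 4 Ecad lists alone. By Fisher's exact test, 0 of the 11295 genes called in some list passed an adjusted p of 0.05 for promoter calls at any start site. An unadjusted p under 0.05 was found for 920, 621 and 334 of them in the 3 comparisons. This test has a floor too: a complete split of the female ΔEcad lines gives a Fisher's exact p of 0.0119, so few genes could pass after adjustment.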

How the data were processed

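The lists of the 9 lines were analysed, and the 4 input libraries were not. Per the labels and methods, the authors fixed and sonicated chromatin, precipitated it with an H3K27ac antibody, sequenced paired ends and aligned reads to GRCm38 (mm10) on the European Galaxy server. The submitters' processing notes name Bowtie2 2.4.5, MACS2 2.2.7.1 and deepTools 3.5.1.0.0 without their settings, and the input used as control is not given in the sources used here. Each deposited list gives peak positions, a score (for at least 99.8% of peaks, −log10 q multiplied by 10 with its decimals dropped), the fold enrichment (a linear ratio), the −log10 p and −log10 q (lowest just above 5) and the summit offset in bases. These deposited values rank peaks only within 1 list. Since the lists carry no read counts, the depth is unknown and no interval for counting error is given.

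Windows, start sites and exons came from the GENCODE annotation of GRCm38 and sequences from the RefSeq GRCm38 genome. Covered kb were summed per window and line (overlap of at least 1 bp) and compared by exact two-sided permutation tests over lines, and promoter calls by Fisher's exact test, both over all autosomal genes with Benjamini-Hochberg adjustment, in Python 3.11.15 with numpy 2.4.6 and scipy 1.17.1. The counting functions were tested on simulated peaks. The permutation test was tried on the covered lengths of these lists, shuffled over lines and with some genes changed. The 10 genes, the pathway lists and the markers were chosen with earlier results of these data known. All 10 genes are named with their values. Differences are given for genes whose groups do not overlap and for the smallest p of a comparison, and elements named are promoter elements, the most shared ones, those that separate groups and those said to be picked after their values were seen. From the pathway lists, genes whose promoters separated groups or were called in 3 to 6 lists are named, and others (Kitl and those called in all lists) were named after their values were seen. The upstream sequences of Pdgfra and Fgfr1, called in 1 list inside the gene, are not printed. Alternatives were equal list lengths (20741 peaks), a −log10 q of at least 10, summits in place of overlap, 2.5 kb promoters, the 5′ end alone, the gene body alone, division by list length, and each line left out. The result of 1 marker list is not reported here.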

Additional observations from a re-analysis of the deposited data

Results flagged for a closer look

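In groups of 4 to 6 lines, 1 line stood far from the rest of its group by Dixon's test in 8 of 48 groups looked at, where chance flags about 1 in 20 (2.4 groups). Kit had 21.2 kb covered in Ma_1007, far above the other 3 male lines. Egfr was covered over 0.573 kb in Ma_1181, where the other 3 Ecad lines had no peak, and over 1.93 kb in Ma_1456, which stood apart from the other ΔEcad lines and from the other 5 lines that are not female ΔEcad. Pdgfrb was covered over 0.634 kb in Ma_1181 among male lines and over 0.427 kb in Ma_1039 among female lines, and the other lines of those groups had no peak. Fgfr1 was covered over 2.56 kb in Ma_1069, which stood apart among the ΔEcad lines and among the female lines. Of the 8 groups, 7 concerned genes without a peak in most lines, where a single short peak is enough. For no receptor gene did all ΔEcad lines of one sex lie above the Ecad lines and all of the other sex below.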

How the results depend on the processing

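Of 98 counts of receptor genes recomputed under the alternatives, 88 stayed within 1.5 times the reported count, and none of 112 differences of single genes turned its direction or passed the adjusted threshold, with that of Mc1r at 0 kb in the gene body alone. With the peak summit required within 1 kb of a start, 1 gene in place of 4 had a promoter call in all 9 lists. With the 5′ end alone, promoter calls separated the female ΔEcad lines for 1 gene (Igf1r) in place of 0. That split rests on a Ma_1456 peak near the calling threshold, and 5′ end calls were not recomputed under the other alternatives. With covered length divided by list length, Erbb3 and Pdgfra no longer separated the female ΔEcad lines and 1 other gene, Igf1r, did (14.9% of all genes did). Between genotypes 0 genes in place of 2 were then separated (3.02%) and between sexes 1, Ednrb, in place of 0 (2.61%). The margins of Igf1r and Ednrb were narrow. Between genotypes, 1 gene in place of 2 was separated with lists of equal length, 1 with a −log10 q of at least 10, and 0 in the gene body alone. The cause was not tested. Leaving out 1 line at a time gave 2 to 3 genes for the female ΔEcad lines, 2 to 3 between genotypes and 0 to 1 between sexes (1 without Ma_1062 or without Ma_1064), and 4 to 4 promoters called in all lists. No paired analysis was possible because the replicate numbers follow the order of deposition and pair no lines. With 2 or 3 lines a group and no read depth, differences smaller than the spread between lines could not be seen.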
